A study of Mus musculus with 32 samples.

Results

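Ventricular transcripts of transgenic mice in cardiac failure were compared with those of transgenic mice in cardiac hypertrophy, 22 of the 32 samples of the series. The samples were chosen by their titles: 3 failure samples and 8 hypertrophy samples on each of 2 types of Affymetrix expression array, a first and a second array type with different probe sets. Total RNA of the cardiac ventricle was hybridised in every case, and all failure and hypertrophy mice carried a cardiac specific AT1 transgene. Carrying the transgene thus does not separate the groups. Whether its line or level differed between them is not stated. A further 5 wild type samples per array type, without the transgene, entered the fit for its estimate of spread and are given as a background level. AT1 is left unexplained by the labels and is read here, as is usual in this field, as the type 1 receptor of angiotensin II. The promoter, species and line of the transgene are not named, nor are age, sex, strain or any measure of heart function. Whether each sample is another mouse is not stated either, so p-values cover only the variation between these samples, which may be technical in part.

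Angiotensin II acts through its type 1 receptor on heart muscle, where receptor signalling raises growth of the myocytes and deposition of matrix. In hypertrophy the ventricular wall thickens while pumping is kept up, and in failure it is no longer kept up. Stressed ventricular myocytes are known to re-express genes of the fetal heart, among them the natriuretic peptides, the slow myosin heavy chain Myh7 and skeletal actin, and to lower genes of fatty acid oxidation and mitochondria. Fibroblasts of the failing heart are known to deposit collagens, periostin and fibronectin.

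Failure and hypertrophy differed past the threshold for 2 genes, Ralgapa2 and Mtap, both higher in failure and both on the second array type. Ralgapa2 encodes a subunit of the complex that switches off Ral GTPases, and Mtap encodes methylthioadenosine phosphorylase, an enzyme of methionine salvage. Their promoter windows are printed here, 250 bases before to 50 bases after the annotated start in RefSeq's GRCm38.p6 assembly, beside those of Nppa and Nppb, the natriuretic peptide genes that serve as the standard markers of a stressed ventricle. The windows lie at chr2:146511955-146512254 on the minus strand for Ralgapa2, chr4:89137120-89137419 on the plus strand for Mtap, chr4:148000472-148000771 on the plus strand for Nppa and chr4:147985650-147985949 on the plus strand for Nppb. Sequences run 5′ to 3′ along the gene's strand, and capitals mark matches, on either strand, to a motif. The motifs were TATAAA for the box bound by the general machinery, CATTCC for the TEAD factors of muscle genes, TGANTCA for the AP-1 factors and GATAA for the cardiac zinc finger factors of that name.
Ralgapa2: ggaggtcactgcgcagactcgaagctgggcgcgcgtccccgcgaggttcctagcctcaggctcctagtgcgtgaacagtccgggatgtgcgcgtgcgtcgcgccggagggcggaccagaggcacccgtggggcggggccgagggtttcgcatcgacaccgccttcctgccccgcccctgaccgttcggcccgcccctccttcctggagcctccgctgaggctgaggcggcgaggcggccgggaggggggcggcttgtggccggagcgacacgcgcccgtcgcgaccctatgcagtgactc
Mtap: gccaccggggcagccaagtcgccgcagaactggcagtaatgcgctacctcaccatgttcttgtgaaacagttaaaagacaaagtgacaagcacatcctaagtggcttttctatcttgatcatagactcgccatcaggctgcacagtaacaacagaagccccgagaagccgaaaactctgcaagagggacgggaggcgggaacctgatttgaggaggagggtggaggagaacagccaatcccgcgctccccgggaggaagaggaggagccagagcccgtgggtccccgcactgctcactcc
Nppa: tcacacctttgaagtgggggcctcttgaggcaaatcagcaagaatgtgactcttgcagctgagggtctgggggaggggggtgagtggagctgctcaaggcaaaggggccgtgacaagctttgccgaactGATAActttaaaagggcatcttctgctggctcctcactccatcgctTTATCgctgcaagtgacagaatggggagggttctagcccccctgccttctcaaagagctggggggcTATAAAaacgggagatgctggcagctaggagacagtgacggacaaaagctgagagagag
Nppb: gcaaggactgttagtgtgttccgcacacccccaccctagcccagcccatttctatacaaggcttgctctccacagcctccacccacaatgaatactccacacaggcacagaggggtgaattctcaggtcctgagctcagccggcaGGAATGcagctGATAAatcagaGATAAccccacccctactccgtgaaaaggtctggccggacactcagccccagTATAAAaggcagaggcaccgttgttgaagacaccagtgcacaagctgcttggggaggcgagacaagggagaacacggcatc
The windows of Ralgapa2 and Mtap held 0 matches, with 39 and 14 CpG dinucleotides, against a median of 7 over all 32851 promoter windows. The Nppa window held 1 TATA box and 2 GATA matches with 6 CpG dinucleotides, and the Nppb window held 1 TATA box, 1 TEAD and 2 GATA matches with 7. Over those 32851 windows, all of the same length, 13.6% held the TATA letters, 14.7% the TEAD letters, 7.81% the AP-1 letters and 25.4% the GATA letters. Of the 18 natriuretic and fetal stress genes listed for this comparison 17 had a window, some of them several, and the letters were found for 4 genes (TATA box), 8 (TEAD), 1 (AP-1) and 7 (GATA). A gene was counted if any of its windows held the letters, so these counts cannot be set directly against the shares per window. A match describes the letters of a window and is not a binding site.

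The arrays were of like brightness, with median signals of 91.8 to 121 (first array type) and 69.3 to 80.6 (second). Hypertrophy replicate 1 had the lowest median on both types. The ratio of 5′ to 3′ Gapdh signal, a measure of RNA and labelling quality, was 0.468 and 0.0487 in hypertrophy replicates 6 and 7 on the first type, against 0.868 or more in the other transgenic arrays of that type. The second-type arrays with those replicate numbers read 0.379 and 0.0414, although the labels do not say that same-numbered samples of both types share their RNA. For Actb, failure had a 5′ to 3′ ratio of 0.960 ± 0.173 (SD, n = 3) and hypertrophy of 0.701 ± 0.204 (SD, n = 8), again on the first type (two-sided exact permutation test, p = 0.0909 over 165 arrangements). The signal of Xist, made from the inactive X, was above that of the Y-linked Eif2s3y in failure replicates 1 and 2 and in hypertrophy replicates 1 to 4 on the first type, and not in failure replicate 3. The second-type probe set of Xist, which was dim, ran otherwise, with 51.5 in failure replicate 3, the highest of the 16 arrays, and 34.5 and 3.12 in failure replicates 1 and 2. A list of 12 cardiomyocyte markers had a mean log2 signal of 11.7, 11.7 and 11.8 in failure and 11.3 to 11.9 in hypertrophy. The probe set of Agtr1a, the mouse receptor gene, read 164, 210 and 240 in failure, 174 to 305 in hypertrophy and 207 to 272 in wild type, and no source used here says whether it detects the transgene's transcript.

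Ralgapa2 gave signals of 366, 324 and 257 in failure replicates 1 to 3. In hypertrophy the lowest signal was 66.0, the median 112 and the highest 146, and the wild type arrays read 83.9, 53.6, 57.4, 93.2 and 39.7. Every failure array was above every hypertrophy and wild type array. The difference between failure and hypertrophy was 1.55 ± 0.25 (log2, SE), a 2.93-fold rise, with adjusted p = 0.0441 (limma, Benjamini-Hochberg over the second array type). Mtap read 323, 281 and 300 in failure. Its hypertrophy signals ran from 116 over a median of 163 to 195, and its wild type signals were 165, 117, 154, 154 and 151. Again no failure array overlapped the others, and the rise was 0.93 ± 0.15 (log2, SE), 1.91-fold, with adjusted p = 0.0441 (limma). Hypertrophy and wild type differed for Ralgapa2 by 0.77 ± 0.21 (adjusted p = 0.24) and for Mtap by 0.10 ± 0.13 (adjusted p = 0.85, limma), while failure against wild type, which shares the failure arrays, gave 2.32 ± 0.27 and 1.03 ± 0.17. Each call was lost when any of failure replicates 1, 2 or 3 or hypertrophy replicates 3, 4, 6 or 8 was left out, although the differences then stayed between 1.44 and 1.69 for Ralgapa2 and between 0.87 and 0.98 for Mtap. With only the 11 failure and hypertrophy arrays of the second type in the fit, 0 probe sets passed, and the smallest adjusted p was 0.0813 (limma). No probe set of that type passed either with adjustment over both array types (smallest adjusted p = 0.0859, limma), with the 5′ to 3′ ratio of Actb as a covariate (0.056) or without hypertrophy replicates 6 and 7 (0.0605).

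**Figure D1:**
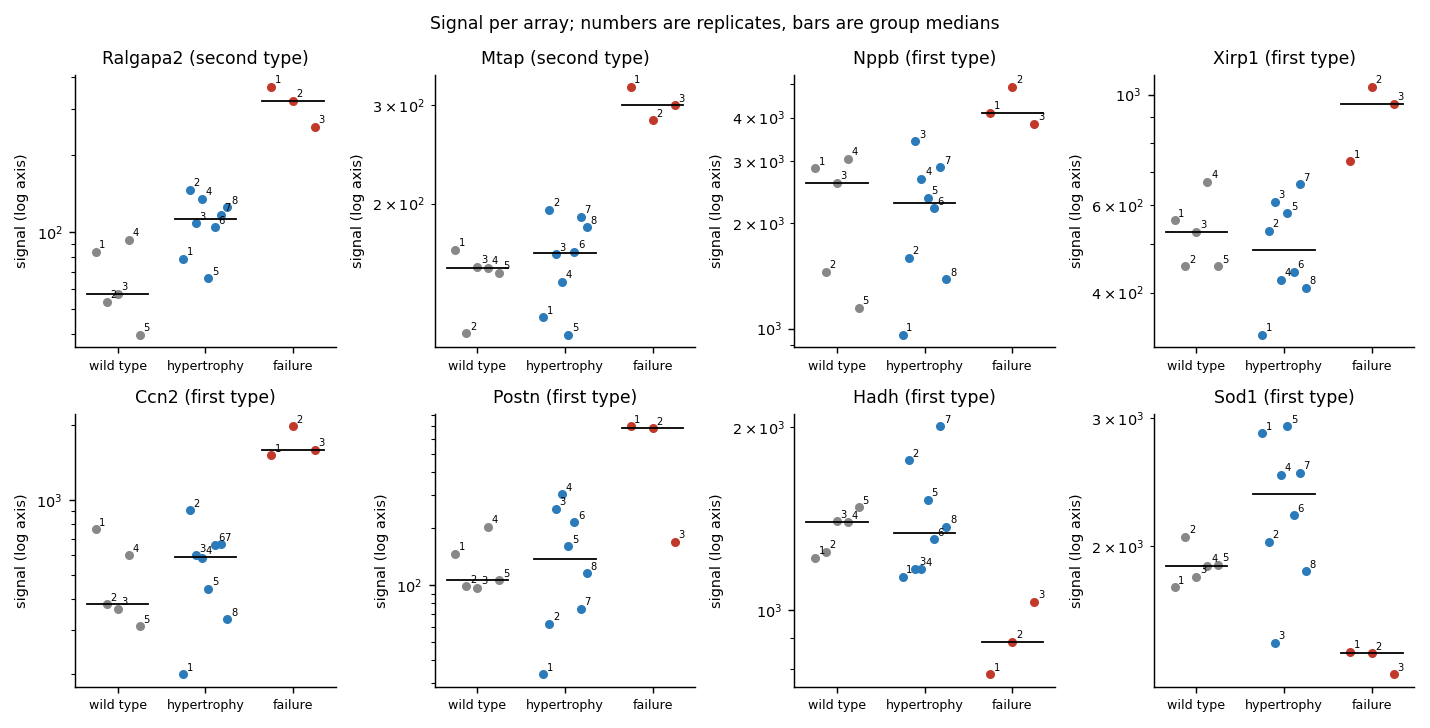
Signal per array (log axis) of 8 genes in wild type (grey), hypertrophy (blue) and failure (red), with replicate numbers beside the points and bars at the group medians. Ralgapa2 and Mtap, on the second array type, show 3 failure points above all others, while Postn has failure replicate 3 among the hypertrophy arrays.

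No other member of the Ral or methionine lists passed the threshold. Of 15 genes of the Ral GTPase pathway, Ralgapa2 was the only member with an unadjusted limma p under 0.05, and the median difference of the list was 0.06 (0.12 without failure replicate 3), against 0.04 over all 9440 genes tested on either type. Among 16 genes of methionine salvage and polyamine synthesis, Mtap and Srm had such a p, both upward (6.08% over all genes). The median of 0.07 was -0.02 without failure replicate 3 and 0.15 without failure replicate 1. Srm encodes spermidine synthase, the enzyme whose by-product Mtap takes up. It read 213, 253 and 170 in failure against 145 to 189 in hypertrophy, a difference of 0.31 ± 0.11 (log2, SE, limma adjusted p = 0.37), and without failure replicate 2 the difference was 0.18. Enoph1, a later enzyme of the salvage route that was picked out after its values were seen, also had failure arrays above all hypertrophy arrays, by 0.16 ± 0.09.

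Over the whole comparison, 0 of 6980 probe sets passed on the first array type (0.0% called in each direction) and 2 of 7004 on the second (0.0286% called, higher in failure). On the first type the smallest adjusted p was 0.128, and 702 probe sets had an unadjusted limma p under 0.05, 508 higher (7.28%) and 194 lower (2.78%), where 349 are expected by chance. The second type gave 607 such probe sets, 378 higher (5.4%) and 229 lower (3.27%), where 350 are expected. In all, 60.9% of the probe sets of the first type and 56.1% of the second lay above 0. On the first type this is a share that was 50.3% after quantile normalization and 41.6% after median scaling. The groups did not overlap for 122 probe sets higher in failure (1.75%) and 55 lower (0.788%) on the first type. On the second they did not overlap for 84 (1.2%) and 41 (0.585%). Calls on the first type depended on single arrays: 24 probe sets passed without failure replicate 3, 6 without hypertrophy replicate 3 and 1 without hypertrophy replicate 8. On the second type, 12 passed without hypertrophy replicate 1 and 13 without hypertrophy replicate 2.

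**Figure D2:**
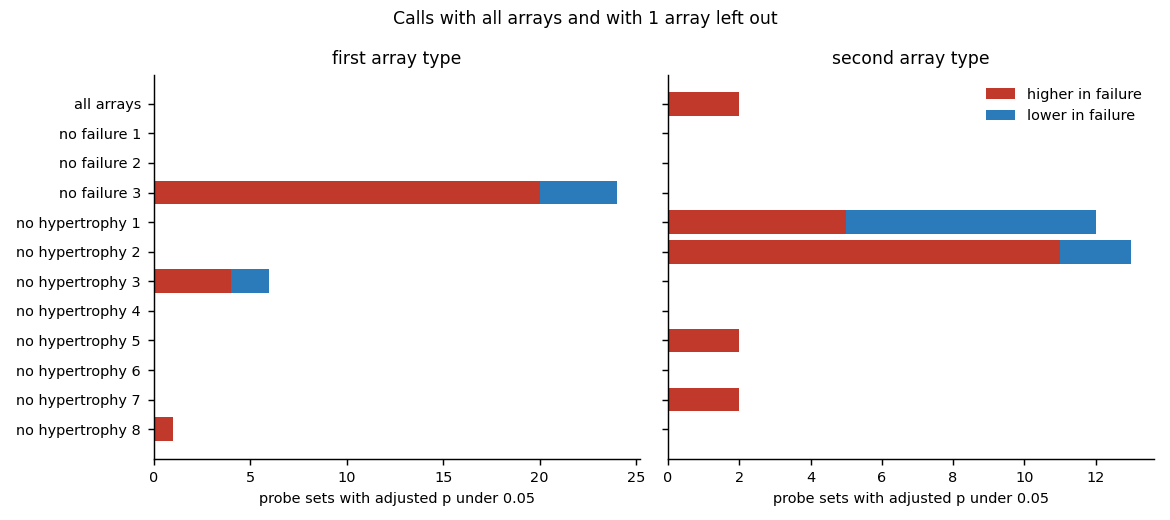
Number of probe sets with adjusted p under 0.05 (limma) with all arrays and with each failure or hypertrophy array left out, higher in failure in red and lower in blue, for each array type. The count of 24 without failure replicate 3 on the first type stands above the 0 of the full fit, and the 2 calls of the second type go to 0 without any failure array.

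Where few or none passed, the genes of smallest p without overlap between groups were taken, 5 per array type and direction. On the first type, those higher in failure were Kif5b, Plp2, Cebpd, Clu and Ccn2, each with adjusted p = 0.128 (limma). Kif5b, a heavy chain of the kinesin motor, read 286, 435 and 281 in failure against a hypertrophy median of 57.8 and highest value of 133, a difference of 2.32 ± 0.39 (log2, SE). In that probe set 2 hypertrophy arrays lay below the signal floor. Another probe set of Kif5b, on the second type, differed by 0.23 ± 0.55. Plp2, a membrane proteolipid, read 531, 642 and 673 against 349 to 482, a difference of 0.60 ± 0.11, and its second-type probe set differed by 0.89 ± 0.19. Clu, the secreted chaperone clusterin, read 1616, 1759 and 1372 against 549 to 1245 and differed by 0.99 ± 0.20. A dimmer Clu probe set read 943, 965 and 656 against 401 to 1008 (0.64 ± 0.21), with all failure arrays inside the hypertrophy range.

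Lower in failure on the first type were Mkln1, Sod1, Ccl3, Hadh and Defa35, by 0.57 to 0.97 on the log2 scale and with adjusted p between 0.15 and 0.17 (limma). Sod1, the cytosolic superoxide dismutase, read 1431, 1425 and 1334 in failure against 1474 to 2922 in hypertrophy, so that its highest failure array lay just under the lowest hypertrophy array (-0.68 ± 0.17). Mkln1, which encodes muskelin, read 165, 150 and 69.5 against 183 to 274, and its difference of -0.97 ± 0.23 was -0.58 without failure replicate 3. Another Mkln1 probe set, on the second type, differed by -0.15 ± 0.10, with overlapping groups. On the second type, Synpo2l (a Z-disc protein), Nsrp1 (a splicing regulator) and Clic5 (a chloride channel family protein) stood higher with adjusted p = 0.079 (limma), as did Tanc2 (a scaffold protein) lower. Synpo2l read 316, 339 and 227 against a hypertrophy range of 19.5 to 135 (2.11 ± 0.41). The signals of Nsrp1 were 176, 144 and 173 against 22.0 to 103 (1.72 ± 0.31), but another of its probe sets differed by 0.27 ± 0.31. The lowest hypertrophy signals of Synpo2l and Nsrp1 lay under the signal floor of 27.5 and were raised to it. Clic5 read 460, 357 and 385 against 101 to 254 (1.05 ± 0.21). The failure signals of Tanc2 were 14.4, 47.4 and 71.6 against 71.6 to 267 (-1.68 ± 0.32), with 1 failure array under the floor. Col27a1 (a fibrillar collagen), Slc40a1 (the iron exporter ferroportin), Palb2 (a DNA repair protein) and Nkain3 were lower by 0.57, 0.71, 0.39 and 0.52 on the log2 scale, with adjusted p from 0.16 to 0.21 (limma). Other probe sets of Col27a1 and Palb2 differed by -0.19 ± 0.18 and -0.20 ± 0.17, with overlapping groups for each.

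**Figure D3:**
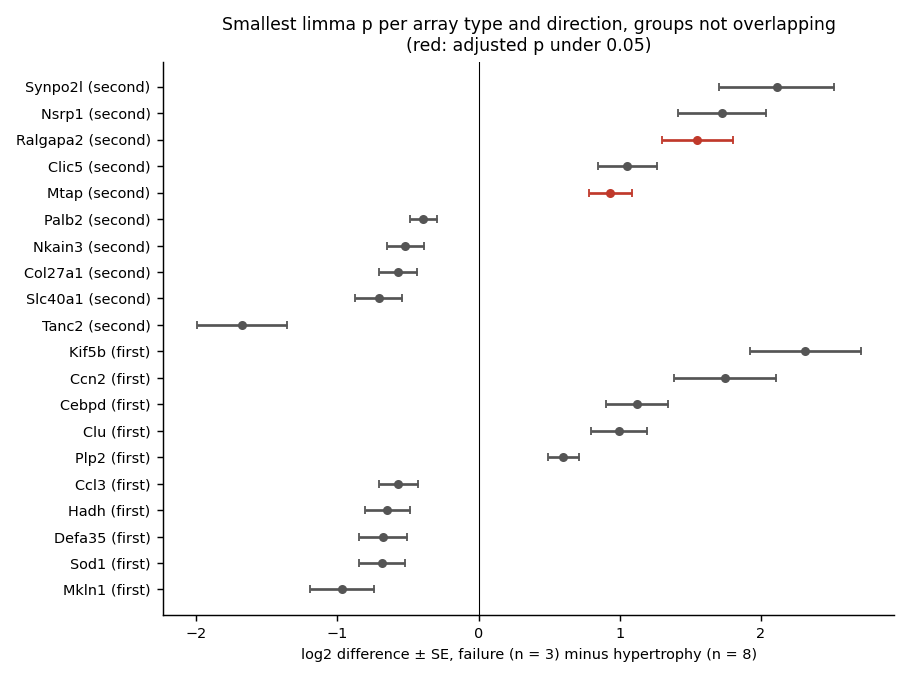
Difference between failure and hypertrophy (log2, bars are SE) of the genes with the smallest limma p in each direction among those whose groups do not overlap, by array type. Ralgapa2 at 1.55 and Mtap at 0.93, in red, are those with adjusted p under 0.05.

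The natriuretic peptides and other genes of the stressed ventricle stood higher in failure, although none passed the threshold. Of 17 tested members of this list, 16 differed upward, 10 had an unadjusted limma p under 0.05 and 5 had groups that did not overlap (Nppb, Myh7, Xirp1, Csrp3 and Synpo2l). Over all genes tested with 1 probe set each, those shares were 6.08% for the p and 1.48% for the overlap, and 0.0212% were called higher. The list median was 0.57, against 0.04 over all genes, and it stayed between 0.47 and 0.65 under the alternatives run for list medians.

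Nppa, which encodes atrial natriuretic peptide, read 3475, 3943 and 4420 in failure. Hypertrophy ran from 646 over a median of 1429 to 3982 and wild type from 929 to 2688, so hypertrophy overlapped failure, with replicates 3 and 4 above the lowest failure array. The difference was 1.37 ± 0.50 (log2, SE, limma adjusted p = 0.37). Nppb, the brain natriuretic peptide gene, read 4125, 4893 and 3845 in failure, above every hypertrophy array (958 to 3419, median 2283), and differed by 1.07 ± 0.35 (adjusted p = 0.31, limma). In neither gene did hypertrophy stand above wild type, with differences of -0.11 ± 0.42 and -0.03 ± 0.29. Myh7, the slow myosin heavy chain, read 10072, 9116 and 8905 in failure against 5594 to 8633 in hypertrophy, a difference of 0.43 ± 0.12 (adjusted p = 0.21, limma), and a dimmer probe set of the gene differed by 1.04 ± 0.22. The fast chain Myh6 was bright in all arrays, 8204, 7643 and 8038 against 7255 to 9799, and differed by -0.08 ± 0.10. Acta1, skeletal actin, spread widely within failure at 4665, 3490 and 1757, against 1007 to 5055 in hypertrophy, and its difference of 0.59 ± 0.45 was 0.28 without failure replicate 1 and 0.99 without failure replicate 3. With the Actb ratio as a covariate the Acta1 difference was 0.23, and with the replicate number as a block it was -0.14, so its direction was not kept.

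Other members of this list included proteins of the intercalated disc, Z-disc and stress response. Xirp1, an actin-binding protein of intercalated discs, read 734, 1036 and 958 in failure against 329 to 660 (0.89 ± 0.19, adjusted p = 0.15, limma). Csrp3, the muscle LIM protein, read 2237, 2169 and 2352 against 1024 to 2159, a difference of 0.57 ± 0.20. The failure signals of Ankrd1, a stretch-responsive titin-binding protein, were 7529, 6671 and 5395 against 2311 to 5718, and replicate 3 lay inside the hypertrophy range (0.60 ± 0.24). Myl7, the atrial regulatory myosin light chain, read 506, 300 and 750 against 98.2 to 338, a difference of 1.51 ± 0.39 (adjusted p = 0.20, limma).

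Nppa and Myl7 are also marker genes of the atria. On the first type 10 atrial markers, these included, had mean log2 signals of 8.56, 8.37 and 8.99 in failure and 7.98 to 8.54 in hypertrophy, so that failure replicates 1 and 3 lay above all hypertrophy arrays. Of 12 tested atrial markers, 4 had an unadjusted p under 0.05 (Myl7, Nppa, Stard10 and Clu), all upward (6.08% over all genes). The list median of 0.11 was 0.30 without failure replicate 2, 0.27 without hypertrophy replicate 7 and 0.07 without hypertrophy replicate 4. Without Nppa and Myl7, a comparison made after the values were seen, the other 10 tested markers had a median of 0.04, against 0.04 over all genes, with 6 above 0. The 8 of them on the first type had means of 8.11, 7.94 and 8.52 in failure and 7.88 to 8.22 in hypertrophy, and failure replicate 3 alone lay above the hypertrophy arrays. The part of atrial tissue in the values of Nppa and Myl7 was not tested.

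**Figure D4:**
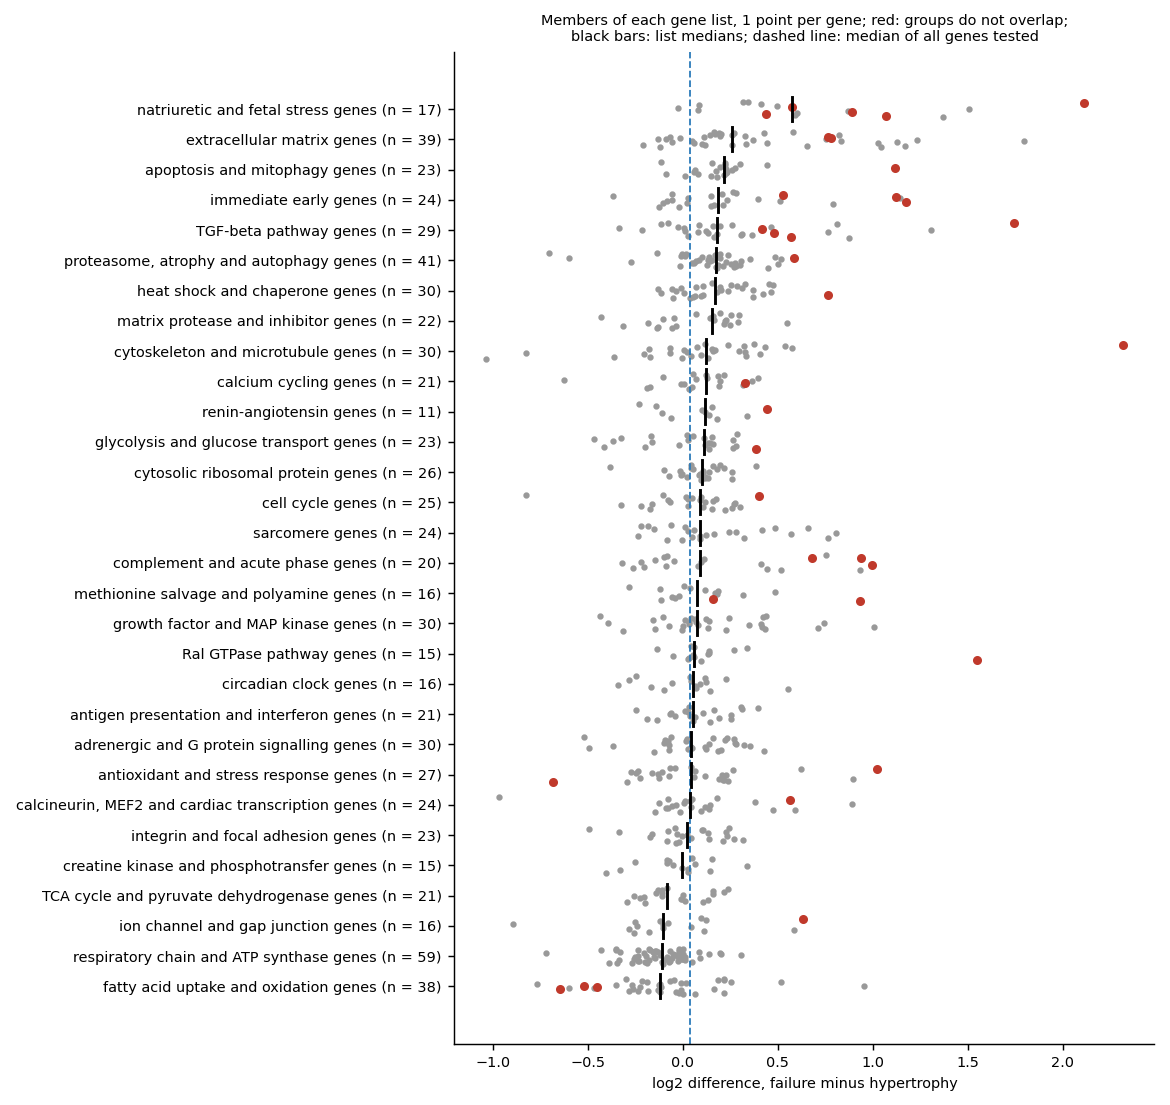
Difference between failure and hypertrophy (log2) of every tested member of 30 gene lists, in red where no failure array overlaps a hypertrophy array, with list medians as black bars and the median of all genes as a dashed line at 0.04. The natriuretic and fetal stress genes lead with a median of 0.57, and the fatty acid oxidation genes are at the other end with -0.12.

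Genes of the contractile apparatus outside that list varied less. Among 24 sarcomere genes, 17 differed upward, against 58.2% over all genes. Of the 24, 5 had an unadjusted limma p under 0.05, all upward (6.08% over all genes), and none had groups apart. The list median of 0.09 was 0.01 after median scaling and 0.03 without hypertrophy replicate 1. The M-band proteins Myom2 and Myom1 and the intermediate filament desmin (Des) were highest, at 0.81 ± 0.25, 0.57 ± 0.18 and 0.66 ± 0.29. For Myom2 the failure signals were 520, 568 and 981 against 248 to 578 in hypertrophy, and without failure replicate 3 the difference was 0.52. Mybpc3, cardiac myosin binding protein C, read 5281, 5715 and 5571 against 3513 to 5985 and differed by 0.32 ± 0.15. Actb, the cytoskeletal actin, went the other way at 646, 782 and 524 against 713 to 2171 (-1.04 ± 0.28, adjusted p = 0.20, limma), and a second probe set of it differed by -0.50 ± 0.24. The mean 5′ to 3′ ratio of Actb was higher in failure, though not past 0.05, as given above. With that ratio as a covariate the Actb difference was -0.61. The ratio is itself built from Actb signals, so this fit does not test RNA quality apart from the amount of Actb. Kif5b, Actb and Stmn1 (stathmin, which frees tubulin from microtubules) were the widest members of the cytoskeleton list, and Stmn1 read 261, 201 and 168 against 188 to 711 (-0.83 ± 0.39, and -0.33 with the covariate).

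Calcium handling showed small differences. Atp2a2, the calcium pump of the sarcoplasmic reticulum, read 5980, 5658 and 5296 in failure against 4954 to 5976 in hypertrophy, a difference of 0.03 ± 0.08 that was -0.16 after quantile normalization and -0.06 after median scaling. Its inhibitor phospholamban (Pln) read 3586, 3747 and 3969 against 3138 to 5356 (-0.19 ± 0.13), and a dimmer Pln probe set gave 0.21 ± 0.23. Hrc, the histidine-rich calcium-binding protein of the reticulum, was lower at 1127, 1314 and 1441 against 1373 to 2762 (-0.63 ± 0.17, adjusted p = 0.21, limma), with only replicate 3 inside the hypertrophy range. Cacnb2, a calcium channel subunit, read 161, 167 and 165 against 101 to 157 (0.33 ± 0.13). Of the 21 calcium genes, 1 had an unadjusted p under 0.05 in each direction (6.08% upward and 3.07% downward over all genes).

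Ion channel genes had a median of -0.11, with 10 of 16 below 0, and the median was 0.01 with the Actb ratio as a covariate. Scn4b, a sodium channel subunit, read 105, 189 and 175 in failure against a hypertrophy median of 316 (-0.90 ± 0.31), and the lowest hypertrophy array, replicate 1 at 105, lay in the failure range. Atp1b1, a subunit of the sodium pump, read 137, 137 and 226 against 65.1 to 131, a difference of 0.63 ± 0.20 that was 0.39 without failure replicate 3. In the adrenergic list, Grk5, a kinase of G protein coupled receptors, differed by 0.43 ± 0.20 and Plcb3, a phospholipase of that pathway, by -0.52 ± 0.25. The list median was 0.04, and -0.05 after median scaling.

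The renin-angiotensin list is the one nearest to the transgene as its name is usually read. Of 11 tested genes, 2 had an unadjusted p under 0.05, both upward (6.08% over all genes). The median was 0.12, or 0.07 without failure replicate 1 and 0.03 after quantile normalization. Ctsd, the lysosomal protease cathepsin D, read 3135, 3755 and 3372 in failure against 1847 to 3006 (0.44 ± 0.14). Agtrap, which encodes a protein that binds the type 1 receptor and takes it inside the cell, read 177, 219 and 139 against 115 to 158, a difference of 0.34 ± 0.13 that was 0.18 without failure replicate 2 and 0.51 without replicate 3. Another Agtrap probe set gave -0.00 ± 0.14. Agtr1a itself differed by -0.06 ± 0.16.

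Matrix genes stood high in failure replicates 1 and 2 but not in replicate 3. The mean log2 signal of 35 extracellular matrix genes on the first type was 8.998 and 8.96 in those arrays and 8.04 in replicate 3, against 7.60 to 8.72 in hypertrophy and 7.93 to 8.31 in wild type. Over both types, 32 of 39 matrix genes differed upward, 13 had an unadjusted limma p under 0.05 and 2, Eln and Fbln2, had groups apart. Over all genes, 58.2% differed upward, 6.08% had such a p upward and 1.48% had failure apart and higher. The list median of 0.26 was 0.51 without failure replicate 3 and 0.15 without failure replicate 1. Periostin (Postn), a matricellular protein of activated fibroblasts, read 699, 680 and 169 in failure, with a hypertrophy range of 33.5 to 304 and a median of 138. Its difference was 1.80 ± 0.56 (adjusted p = 0.29, limma), and 2.47 without failure replicate 3. The lowest hypertrophy signal of Postn lay under the signal floor.

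Collagen I showed the same division of arrays. Col1a1 read 606, 771 and 140 in failure against 115 to 380 in hypertrophy, a difference of 1.04 ± 0.41 (adjusted p = 0.41, limma) that was 0.57 without failure replicate 2 and 1.80 without replicate 3, where it passed (adjusted p = 0.034, limma). A second Col1a1 probe set differed by 0.87 ± 0.28. Fibronectin (Fn1) read 308, 514 and 208 against 84.4 to 219 (1.13 ± 0.26), and the network collagen Col8a1 read 360, 306 and 160 against 72.3 to 178 (1.03 ± 0.28). Elastin (Eln) differed in all 3 failure arrays, at 362, 326 and 295 against 149 to 253 (0.78 ± 0.17, adjusted p = 0.15, limma), as did the elastic fibre protein Fbln2 at 547, 460 and 432 against 205 to 388 (0.76 ± 0.17). A dimmer Eln probe set read 242, 231 and 187 against 107 to 202 (0.39 ± 0.16), with replicate 3 inside the hypertrophy range. In failure replicate 3, then, Fbln2 and the brighter elastin probe set lay above hypertrophy. The dimmer elastin probe set, Postn, Col1a1, Fn1 and Col8a1 lay within it.

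Fibroblast markers followed the matrix genes. The lists share members, Col1a1 and Postn among them, so this likeness is partly built in. The mean log2 signal of 14 such markers was 9.10, 9.10 and 8.09 in failure and 7.82 to 8.86 in hypertrophy. Of 16 tested on either type, 11 differed upward, against 58.2% over all genes. An unadjusted p under 0.05 was found for 4 (Col1a1, Mfap5, Pi16 and Postn), all upward (6.08% over all genes). The list median of 0.09 ranged from 0.00 after median scaling and 0.01 without failure replicate 1 to 0.33 without failure replicate 3. Mfap5, a microfibril protein, read 538, 455 and 266 against 108 to 303 (1.12 ± 0.26), and Pi16, a surface marker of resident fibroblasts, read 257, 265 and 185 against 115 to 205 (0.69 ± 0.22). In RNA of whole tissue a different number of cells of a type and a different amount of RNA per cell cannot be told apart. The part of fibroblast content in the matrix values was not tested.

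Without failure replicate 3, the 24 probe sets that passed on the first type included Col1a1 (both probe sets), Bgn, Fn1, Mfap5 and Fstl1 higher, and Hopx, Ldhb and Ptgds lower, named here after their values were seen. Biglycan (Bgn), a matrix proteoglycan, then differed by 1.77 ± 0.34 and Fstl1, a secreted glycoprotein, by 1.83 ± 0.37 (adjusted p = 0.0375 and 0.0433, limma). Hopx, a homeodomain protein that restrains growth genes in the heart, read 595, 534 and 1088 in failure against 980 to 2261, a difference of -0.97 ± 0.23 with all arrays and -1.29 without replicate 3. Ldhb, the heart form of lactate dehydrogenase, read 1461, 1343 and 2972 against 1979 to 3031 (-0.47 ± 0.19, and -0.83 without replicate 3). Failure replicate 3 was also the failure array in which Xist did not exceed Eif2s3y on the first type, while its second-type Xist signal was the highest, as given above. Within the arrays in which it did, Col1a1 differed by 1.57 and Postn by 2.55, and within the others by -0.25 and 0.36, each from 1 failure array in the second case.

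**Figure D5:**
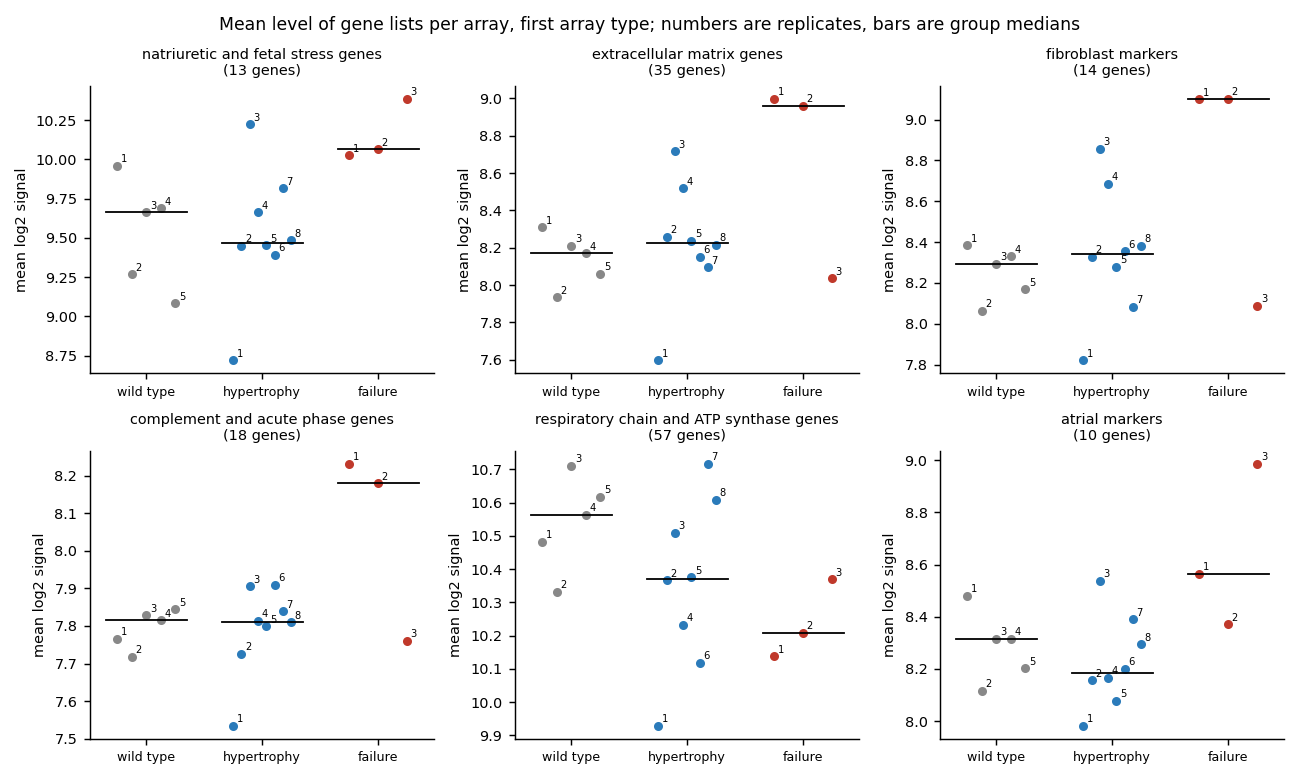
Mean log2 signal per array of 6 gene or marker lists on the first array type in wild type (grey), hypertrophy (blue) and failure (red), with replicate numbers beside the points and bars at the group medians. Failure replicates 1 and 2 are near 9.0 for matrix genes and 9.1 for fibroblast markers while replicate 3 is at 8.04 and 8.09, and replicate 3 is highest for atrial markers at 8.99.

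Genes of TGF-beta signalling, which drives matrix production, were spread between these patterns. Of 29 members, 24 differed upward, 8 had an unadjusted limma p under 0.05 upward and 1 downward, and 4 had groups apart upward (Tgfbr1, Smad7, Ccn2 and, named after its values were seen, Acvr2a), where over all genes 6.08% and 3.07% had such a p and 1.48% were apart upward. The list median was 0.18, and 0.11 without failure replicate 2. Among ligands, Tgfb3 read 235, 292 and 167 in failure against 68.1 to 174 in hypertrophy (0.88 ± 0.23, adjusted p = 0.20, limma). Tgfbr1, the type I receptor, read 170, 159 and 196 against 91.4 to 149 (0.57 ± 0.15), and failure against wild type, with the same failure arrays, gave 0.80 for it. Smad7, an inhibitor inside the cell, read 225, 224 and 166 against 117 to 165 (0.48 ± 0.13), with replicate 3 barely apart. The target Ccn2, connective tissue growth factor, stood out in all 3 failure arrays at 1516, 1982 and 1592 against 199 to 910 with a median of 593, a difference of 1.75 ± 0.36 (adjusted p = 0.13, limma). Ccn2 thus did not share the low value that Postn and Col1a1 had in replicate 3.

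Among growth factors, Hbegf, a heparin-binding ligand of the EGF receptor, read 209, 297 and 107 in failure against 64.2 to 135 (1.01 ± 0.27, and 1.41 without failure replicate 3). Igfbp6, a binding protein of insulin-like growth factors, read 290, 332 and 212 against 138 to 218 (0.71 ± 0.16). Dusp4, a phosphatase of MAP kinases, was lower at 268, 199 and 157 against 223 to 352, a difference of -0.44 ± 0.17 that was -0.25 without failure replicate 3 and -0.64 without replicate 1. In this list of 30 genes, 6 had an unadjusted p under 0.05 upward and 2 downward (6.08% and 3.07% over all genes), and none had groups apart.

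Immediate early and stress-induced transcription factors were higher in part. Of 24 genes, 17 differed upward, 6 had an unadjusted p under 0.05 and 3 had groups apart (Ier3, Cebpd and Sgk1), with a median of 0.18. The shares over all genes were 58.2% upward, 6.08% with such a p upward and 1.48% apart upward. Cebpd, a transcription factor of the acute phase response, read 276, 372 and 158 in failure against 80.7 to 154 (1.12 ± 0.22), and Ier3, an early response gene, 198, 190 and 119 against 41.6 to 109 (1.17 ± 0.26). Sgk1, a kinase induced by serum and steroids, read 266, 285 and 326 against 170 to 251 (0.52 ± 0.15). Cebpb, a relative of Cebpd, read 187, 188 and 125 against 47.3 to 175 (1.14 ± 0.33), with replicate 3 inside the hypertrophy range.

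Acute phase genes included 3 with groups apart among 20: Clu (in its brighter probe set), Cp and Serpina3n, the last named after its values were seen. All 3 were higher in failure, as were 1.48% of all genes without overlap. Ceruloplasmin (Cp), a copper-carrying oxidase, read 257, 210 and 288 in failure against 121 to 199 (0.68 ± 0.14, adjusted p = 0.13, limma). Serpina3n, a protease inhibitor, read 258 ± 26.6 (SD, n = 3) against 148 ± 62.4 (SD, n = 8). The complement component C1qb, made by macrophages, read 223, 199 and 114 against 49.2 to 172 (0.93 ± 0.35), and Fgl2, a prothrombinase, 400, 479 and 174 against 104 to 273, a difference of 0.75 ± 0.28 that was 0.47 without failure replicate 2 and 1.20 without replicate 3. The list median of 0.09 went from -0.01 without failure replicate 2 to 0.28 without failure replicate 3, with 11 of 20 members above 0 and 7 at an unadjusted p under 0.05, all upward (6.08% over all genes).

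Markers of white blood cells were mixed. Of 15 macrophage and neutrophil markers, 8 lay above 0, and the median of 0.08 was -0.07 without failure replicate 1 and 0.005 without hypertrophy replicate 1. The 2 with an unadjusted p under 0.05 were both lower in failure (3.07% over all genes), while Tyrobp, Mrc1, Cd163, Coro1a and S100a8 were not tested. Ptprc, the leukocyte antigen CD45, read 136, 104 and 160 in failure against 132 to 349 (-0.69 ± 0.23), and the integrin chain Itgam read 73.9, 68.0 and 55.8 against 74.9 to 126 (-0.51 ± 0.20). Mean log2 signals of the 15 markers were 7.84, 7.74 and 7.61 in failure and 7.66 to 7.94 in hypertrophy. Among 8 lymphocyte markers, the B cell gene Cd79a differed by 0.31 ± 0.13 and Ms4a1 (CD20) by -0.69 ± 0.19. They were the only members with an unadjusted p under 0.05 (6.08% upward and 3.07% downward over all genes). Another Ms4a1 probe set, on the second type, differed by -0.11 ± 0.14, with overlapping groups. Of 3 tested erythroid markers all differed upward, and their mean log2 signal was 8.60, 8.83 and 9.62 in failure and 8.001 to 9.02 in hypertrophy, again with replicate 3 apart.

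In the vascular lists no gene passed. Of 14 endothelial markers, 3 had an unadjusted p under 0.05 (Vwf, Tie1 and Esam), all upward (6.08% over all genes). The list median was 0.06, or -0.03 after median scaling, -0.07 without hypertrophy replicate 1 and 0.22 without failure replicate 2. Vwf, von Willebrand factor, read 205, 185 and 329 in failure against 78.1 to 182 (1.002 ± 0.23, adjusted p = 0.15, limma). It was the only member with groups apart, where 1.48% of all genes were apart upward. Tie1, an endothelial receptor kinase, read 149, 128 and 155 against 92.6 to 131 (0.42 ± 0.11). Smooth muscle and pericyte markers had a median of 0.10, which was 0.01 after median scaling, 0.20 without failure replicate 2 and 0.03 without hypertrophy replicate 1.

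Genes of mitochondrial energy supply stood lower in failure by small amounts. Of 59 genes of the respiratory chain and ATP synthase, 50 lay below 0, where 58.2% of all genes lay above it, and 4 had an unadjusted limma p under 0.05, all downward (3.07% over all genes). The list median was -0.11, -0.20 without failure replicate 3 and -0.06 without failure replicate 1. Cox7a1, the heart and muscle form of a cytochrome c oxidase subunit, read 1165, 1152 and 1185 in failure, and hypertrophy spread from 1116 to 3108 with a median of 1958 (-0.72 ± 0.22, adjusted p = 0.26, limma). The failure arrays were nearly alike for Cox7a1, and 1 hypertrophy array read lower. Ndufa8, a complex I subunit, read 939, 1122 and 1446 against 1158 to 2003 (-0.39 ± 0.17, and -0.24 without failure replicate 1). Atp5k and Atp5g2, both subunits of ATP synthase, differed by -0.43 ± 0.20 and -0.35 ± 0.16. With the Actb 5′ to 3′ ratio, a measure of RNA quality, as a covariate, the list median was -0.05 with 39 of 59 genes below 0, and the differences of Cox7a1, Atp5k and Atp5g2 were -0.47, -0.22 and -0.09. The mean log2 signal of 57 such genes on the first type was 10.1, 10.2 and 10.4 in failure and 9.93 to 10.7 in hypertrophy. Hypertrophy replicates 1 and 6 lay below all failure arrays, replicates 2 and 4 within their range and the other 4 above it. The highest was replicate 7, the array with the lowest Gapdh ratio, and without replicates 6 and 7 the list median was -0.10. The part of RNA quality in these values was not tested further.

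Fatty acid uptake and oxidation had the lowest list median, -0.12, with 27 of 38 genes below 0 and 3 genes with groups apart downward (0.72% over all genes): Hadh, Acaa2 and Eci1. Without failure replicate 1 the median was -0.06, and it was -0.07 without hypertrophy replicate 7 and -0.08 without hypertrophy replicate 2 or with the Actb ratio as a covariate. Hadh, the mitochondrial 3-hydroxyacyl-CoA dehydrogenase, read 784, 887 and 1033 in failure against 1133 to 2005 in hypertrophy with a median of 1340, and 1220 to 1475 in wild type (-0.65 ± 0.16, adjusted p = 0.17, limma). Acaa2, the thiolase of the last step of the cycle, read 1483, 1494 and 1584 against 1749 to 3200 (-0.52 ± 0.17). Eci1, an isomerase that handles unsaturated chains and was picked out after its values were seen, read 626 ± 33.4 (SD, n = 3) against 872 ± 187 (SD, n = 8). Acat1, a thiolase that also serves ketone use, went the other way at 185, 102 and 204 against 50.4 to 104 (0.95 ± 0.21, adjusted p = 0.13, limma). For Acat1 the hypertrophy arrays were also lower than wild type, at -1.002 (adjusted p = 0.028, limma), and failure differed from wild type by -0.05. Another Acat1 probe set differed by 0.09 ± 0.27.

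Lpl, which frees fatty acids from lipoproteins, read 4924, 4851 and 4855 against 3730 to 4988 (0.21 ± 0.10), and another probe set gave -0.17 ± 0.14. Among 23 glycolysis genes, Slc2a1, the basal glucose transporter, read 315, 325 and 336 against 188 to 312 (0.38 ± 0.17), and hexokinase 2 (Hk2) read 504, 487 and 572 against 494 to 1057 (-0.42 ± 0.19). The 21 genes of the TCA cycle had no member at an unadjusted p under 0.05. Their median was -0.08, but 0.04 without failure replicate 1, and the Actb covariate put it at 0.07. Neither did any of the 15 creatine kinase and phosphotransfer genes.

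Stress and protein quality genes differed member by member. Metallothioneins, which bind zinc and other metals, stood higher: Mt1 read 1814, 2103 and 1750 in failure against 605 to 1514 (1.02 ± 0.24, adjusted p = 0.15, limma), and Mt2 read 1174, 1349 and 735 against 559 to 838 (0.62 ± 0.16). A second-type probe set of Mt1 differed by 0.02 ± 0.11. Gpx3, an extracellular glutathione peroxidase, read 1509, 2246 and 2602 against 666 to 1889 (0.90 ± 0.29). Hspb7, a small heat shock protein of heart muscle, read 2605, 2728 and 3428 against 1090 to 2503 (0.76 ± 0.22, adjusted p = 0.38, limma). It was the only one of 30 chaperone genes with groups apart, where 1.48% of all genes were apart upward. Tnfrsf12a, the receptor of the cytokine TWEAK, read 288, 390 and 389 against 76.4 to 274 (1.12 ± 0.30). In its apoptosis list, 21 of 23 genes differed upward (58.2% over all genes), with a median of 0.22.

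Of 41 proteasome, atrophy and autophagy genes, 34 differed upward (58.2% over all genes). The list median of 0.18 was 0.09 after median scaling, 0.12 without failure replicate 2 and 0.09 without hypertrophy replicate 1. Psmd13, a subunit of the proteasome's cap, read 284, 303 and 303 in failure against 128 to 282 (0.58 ± 0.20), and the core subunit Psma1 265, 231 and 212 against 96.5 to 238 (0.45 ± 0.20). With the Actb ratio as a covariate they differed by 0.29 and 0.11. Psme1, part of the interferon-induced activator, was lower at 120, 113 and 128 against 98.5 to 284 (-0.60 ± 0.26).

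Transcription factors of the heart gave mixed values. Myocd, the coactivator myocardin, read 192, 189 and 189 in failure against 78.5 to 187 (0.57 ± 0.20), while wild type read 154 to 205. It was the only one of 24 genes with groups apart, where 1.48% of all genes were apart upward. Gata6 read 148, 147 and 228 against 35.4 to 162 (0.89 ± 0.30, and 0.42 with the Actb ratio as a covariate), and a second probe set gave -0.14 ± 0.31. The lowest hypertrophy signal of Gata6 lay under the signal floor. Hand1 differed by 0.38 ± 0.16, with a second probe set at -0.40 ± 0.36. The clock gene Per1 read 312, 279 and 173 against 138 to 259 (0.55 ± 0.19). It was the only one of 16 clock genes with an unadjusted p under 0.05 (6.08% upward over all genes). Tk1, thymidine kinase of dividing cells, read 242, 239 and 299 against 162 to 229 (0.40 ± 0.13), and another probe set gave -0.31 ± 0.17. No gene of antigen presentation (21) or of the cytosolic ribosome (26) had an unadjusted p under 0.05.

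Of the 118 genes named by the rule, 81 were higher and 37 lower in failure. Over all genes tested, 58.2% differed upward, and 574 higher and 290 lower had an unadjusted limma p under 0.05. For 31 of them another probe set was tested, which differed in direction for 7: Gata6, Hand1, Agtrap, Lpl, Tk1, Atp2a2 and Pln. Set against wild type, hypertrophy passed for 1 of the 118, Acat1, and failure for 12, among them Ralgapa2, Mtap, Kif5b, Plp2, Cebpd, Tgfbr1, Agtrap, Synpo2l, Nsrp1 and Clic5 higher and Tanc2 and Palb2 lower (limma, adjusted over each array type). These comparisons share their failure or hypertrophy arrays with the present one and do not add separate evidence. Apart from the preset markers, the 118 were picked by their small p in the present comparison. The shares of all probe sets that passed against wild type are not given here, so the counts of 1 and 12 cannot be weighed.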

How the data were processed

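Ventricular RNA of 3 failure, 8 hypertrophy and 5 wild type samples was measured on each of 2 Affymetrix array types. Each probe set has 1 deposited value, a linear intensity. How the authors summarised or scaled the arrays was not given in the sources used here. Array medians varied by 6.60% and 4.65% (coefficient of variation) and trimmed means by 4.82% and 3.31%, so the values were used as deposited. A signal floor was set at the 20th percentile of each type (39.5 and 27.5), which understates differences of dim probe sets, and log2 was taken. Non-control probe sets at or above the array median in 3 or more arrays were tested, 6980 of 12488 and 7004 of 12477. Of these, 2 and 1 passed this filter through failure arrays only, none of them named here.

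For each type, lmFit and eBayes of limma 3.58.1 (R 4.3.3) were run over its 16 arrays, with 1 estimate of spread for the groups. The contrast was failure minus hypertrophy, with Benjamini-Hochberg adjustment per array type and a threshold of 0.05. The median standard error was 0.15 (log2) on both types. The number of arrays limits the precision. The fit was tested on simulated data. Figures were drawn with matplotlib 3.10.9.

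Genes were named from the platform annotation, which gave 1 gene for 10833 and 10581 probe sets, several for 396 and 178 and none for 1193 and 1652. Symbols were updated to GRCm38.p6, which changed 12 and 20. The brightest tested probe set stands for a gene, taken from the first type where possible. Named are 13 preset markers, then for each type and direction the called probe sets or, where fewer than 5 passed, the 5 of smallest p without overlap between the groups, then up to 4 members per list with an unadjusted p under 0.05. Predicted genes and immunoglobulin segments were skipped in the second step. The samples, 30 gene lists, 11 marker lists, the rule and the tests were chosen with earlier results of these data known. Promoter sequences are RefSeq's (GRCm38.p6). Alternatives were quantile normalization, median scaling, a lower and a higher floor, other filters, trend and robust estimation, array weights, only the failure and hypertrophy arrays, the replicate number as a block, each array left out, and adjustment over both types. Fits without hypertrophy replicates 6 and 7, or with the Gapdh ratio, the Actb ratio or the Xist class as a covariate, were added after seeing the data. List medians with either ratio as a covariate, and the atrial markers without Nppa and Myl7, were added then too.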

Additional observations from a re-analysis of the deposited data

Results flagged for a closer look

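Each named gene's 8 hypertrophy signals, and each list's 8 hypertrophy means, were checked for an array far from the others (Dixon's test at its 95% critical value). Of 159 groups checked 10 stood out, and chance flags about 1 in 20 groups. Replicate 1 was the low array for Pdgfrb (a growth factor receptor of pericytes) at 71.1 against 99.2 to 129 in the other hypertrophy arrays, Vcl (vinculin of cell junctions) at 99.8 against 169 to 249, Scn4b at 105 against 257 to 410 and Clic5 at 101 against 169 to 254. Replicate 7, an array of low Gapdh ratio, was the low array for the proteasome subunit Psma1, at 96.5 against 159 to 238.

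Replicate 1 was also the low array in the mean log2 signal of 5 lists: 8.11 for cytoskeleton and microtubule genes, 8.24 for creatine kinase and phosphotransfer genes, 7.51 for methionine salvage and polyamine genes, 7.08 for endothelial markers and 6.94 for smooth muscle and pericyte markers. The array had the lowest median signal of the first type, 91.8. The part of that low median in these values was not tested.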

How the results depend on the processing

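The first array type gave 0 calls, and also 0 with quantile normalization, median scaling, a floor at the 5th percentile, trend and robust estimation, only the failure and hypertrophy arrays, adjustment over both types, and each fit added after seeing the data. It gave 1 with a floor at the 30th percentile, 10 without a filter on dim probe sets, 2 with a filter at the 75th percentile and 274 with array weights (198 higher, 76 lower), where failure replicate 2 had weight 3.45 and hypertrophy replicate 1 weight 0.253. Leaving out 1 array gave 0 to 24 calls. The second type gave 2 calls, 6 with a floor at the 30th percentile, 12 without a filter, 30 with array weights (21 higher, 9 lower), 0 with only the failure and hypertrophy arrays, 0 with adjustment over both types, 0 without hypertrophy replicates 6 and 7, 5 with the Gapdh ratio and 0 with the Actb ratio as a covariate. Leaving out 1 array gave 0 to 13. The replicate block gave 0 on both types, but the replicate numbers do not pair the samples: deviations of same-numbered failure and hypertrophy samples correlated at 0.11, -0.16 and -0.04 on the first type, with values of 0.14, -0.05 and 0.13 for the second. Among 118 named genes 115 kept their direction under all alternatives run. Acta1 differed by -0.14 with the replicate block. Atp2a2 differed by -0.16 after quantile normalization, -0.057 after median scaling and -0.0097 without failure replicate 1, with a highest value of 0.078 without failure replicate 3. Agtr1a differed by 0.0032 with the block, 0.086 without failure replicate 1, 0.013 without hypertrophy replicate 4 and 0.14 with the Actb ratio, with a lowest value of -0.19 without failure replicate 3. The causes were not tested.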
